A study of Mus musculus with 6 samples.

Results

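The genes of the cytosolic ribosomal proteins were compared between newborn and adult mouse aortic valves. These are the protein-coding genes whose symbols are Rpl or Rps with a number (and an a, x, l or y ending where present), together with Rplp0, Rplp1, Rplp2 and Rpsa. The rule found 80 of the 46983 genes in the deposited table, of which 21930 are protein-coding. Of these, 49 encode proteins of the large ribosomal subunit and 31 of the small subunit, and 4 of the 80 (Rpl3l, Rpl10l, Rpl39l and Rps27l) are paralogs of another member, which leaves 76 standard genes.

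RNA was sequenced from aortic valves of wild type C57BL/6J mice, in 3 libraries from mice on postnatal day 2 (PND2) and 3 from mice aged 4 months. Valves of 5 to 6 mice were pooled for each library, so the spread between libraries is a spread between pools. No treatment or allele differed between the ages. Library totals are not given directly and were inferred from the deposited exon values, as described under processing. They ran from 23810507 to 38994657, and the 4 months replicate 2 library was the smallest. All 10 markers of valve interstitial cells were present, with summed levels of 6620 to 7300 RPKM at PND2 and 8080 to 10200 RPKM at 4 months, although 5 of them were called lower (among them Postn and Vcan) and 2 higher (Dcn and Lum), with a median log2 fold change of -0.45. RPKM is the number of reads on a gene scaled by the length of its annotated exons in kilobases and by the library total. It allows a rough comparison between genes and libraries, which shared copies and the scaling of libraries, both described below, can shift.

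A ribosome is built from ribosomal RNA and one copy of most ribosomal proteins, with the small subunit reading the mRNA and the large subunit joining the amino acids. Cells that grow and divide make many ribosomes, and ribosomal protein mRNAs are among the most abundant messages in most tissues. Their mRNAs typically start with a run of pyrimidines at the 5′ end (the TOP motif), through which the mTOR pathway controls how strongly they are translated. A few ribosomal proteins have a paralog restricted to certain tissues, such as Rpl3l, which takes the place of Rpl3 in heart and skeletal muscle.

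Start regions are shown because this sequence feature is known for these genes, and its relation to the fold changes was not tested. RefSeq start windows of GRCm38.p6 (the same assembly as mm10), from 250 bases before to 50 bases after the start, matched 60 of the 80 members by symbol. Within 50 bases of the start on either side, a run of at least 8 pyrimidines on the gene's strand was present in 85.0% of these members, against 37.8% of 11965 tested protein-coding genes and 39.3% of all 27025 genes with a window. The median longest run was 10.5 bases in members and 7 bases in the tested protein-coding genes. Below, 80 bases before to 30 bases after the start are printed 5′ to 3′ for the 3 lowest and the 3 highest fold changes among the standard members with a window, and for Rpl3l, with the longest pyrimidine run near the start in capitals.
Rplp0, chr5:115559387-115559496, plus strand: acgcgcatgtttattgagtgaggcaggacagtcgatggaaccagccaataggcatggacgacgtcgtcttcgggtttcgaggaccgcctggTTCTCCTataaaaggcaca
Rpl39, chrX:37085193-37085302, minus strand: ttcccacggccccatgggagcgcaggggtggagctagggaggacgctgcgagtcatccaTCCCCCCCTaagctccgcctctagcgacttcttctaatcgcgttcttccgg
Rps26, chr10:128626477-128626586, minus strand: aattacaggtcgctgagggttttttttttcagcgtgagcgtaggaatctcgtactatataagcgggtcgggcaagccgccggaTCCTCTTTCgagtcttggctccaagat
Rps21, chr2:180257299-180257408, plus strand: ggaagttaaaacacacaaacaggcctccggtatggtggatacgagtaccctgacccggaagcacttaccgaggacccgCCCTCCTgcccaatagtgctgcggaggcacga
Rpl9, chr5:65391402-65391511, minus strand: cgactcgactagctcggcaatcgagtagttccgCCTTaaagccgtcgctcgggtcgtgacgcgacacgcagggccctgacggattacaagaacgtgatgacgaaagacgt
Rpl13, chr8:123102270-123102379, plus strand: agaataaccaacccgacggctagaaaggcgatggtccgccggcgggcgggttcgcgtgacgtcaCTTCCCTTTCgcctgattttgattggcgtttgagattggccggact
Rpl3l, chr17:24727746-24727855, plus strand: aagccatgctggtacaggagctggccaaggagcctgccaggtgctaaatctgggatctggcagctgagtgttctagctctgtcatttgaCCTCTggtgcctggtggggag

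The run was 7 bases long in Rplp0, 9 in Rpl39 and 9 in Rps26, and it was 7 in Rps21, 4 in Rpl9, 10 in Rpl13 and 5 in Rpl3l. In Rpl39, Rpl9 and Rpl13 the marked run lies before the start. A run counted here can thus lie outside the mRNA and is not the TOP motif itself. The letters CTTTCC (or GGAAAG on the other strand), which can lie inside a pyrimidine run, were present within 50 bases of the start in 33.3% of members and 9.83% of the tested protein-coding genes. The letters CTTCCG (or CGGAAG), the core recognised by ETS family factors, were present in the whole window of 68.3% of members against 30.3%, and GCCATCTT (or AAGATGGC), the core of the YY1 motif, in 8.33% against 4.38%. These are matches of letters and not sites shown to be bound.

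Other features that the rule did not use also set the members apart by description. snoRNA genes, which guide the modification of ribosomal RNA, lay inside 29 of the 80 members (36.2%), with 56 snoRNA genes in all, against 1.45% of tested protein-coding genes. The members were spread over 19 chromosomes, and 14 were on chromosome 7. Their median exonic length was 1610 bases against 3660 bases in the tested protein-coding genes, with a range from 404 to 6270 bases.

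Ribosomal protein genes are known for their many processed copies elsewhere in the genome, and these bear on every value that follows. The table listed 268 named copies of 57 members, such as Rpl31-ps8, and 22 each for Rpl31 and Rps12. When the lead transcript of each member was divided into windows of 47 bases, a median of 49.6% of the windows were also present in a transcript of another gene, against 0% in the tested protein-coding genes. Summed over genes, reads came to between 2.31 and 2.36 times the library totals, and whether these totals are reads or read pairs is not given in the sources used here. How much of a member's value came from reads of its copies, or of a copy's value from reads of its member, was not tested.

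The junction between exons 2 and 3 shows the problem for Rpl31 and Rpl36a. The sequences below come from GENCODE M21 transcripts (GRCm38), 30 bases on each side of the junction, with the downstream exon of the member in capitals.
Rpl31, chr1:39368226-39368255 joined to chr1:39370014-39370043, plus strand: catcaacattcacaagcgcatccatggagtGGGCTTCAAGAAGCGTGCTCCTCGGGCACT
Rpl31-ps8: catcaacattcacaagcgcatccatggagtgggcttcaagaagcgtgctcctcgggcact
Rpl36a, chrX:134586154-134586183 joined to chrX:134586511-134586540, plus strand: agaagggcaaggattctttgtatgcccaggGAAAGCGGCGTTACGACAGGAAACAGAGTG
Rpl36a-ps2: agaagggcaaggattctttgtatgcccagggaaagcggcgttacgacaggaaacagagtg

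Both copies matched their member over the 60 bases with 0 mismatches, and both lack the intron. Over the 6 libraries Rpl31-ps8 had a mean of 2100 RPKM against 52.4 RPKM for Rpl31, a ratio of 40.1, and Rpl36a-ps2 had 945 RPKM against 26.8 RPKM for Rpl36a, a ratio of 35.3. Length enters such a ratio, since RPKM divides by exonic bases, 1662 in Rpl31, and Rpl31-ps8 spans only chr15:90764279-90764656. Of the 268 copies, 133 stood above their member, and 43 of the 57 members with a copy had at least 1 copy above them.

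**Figure D1:**
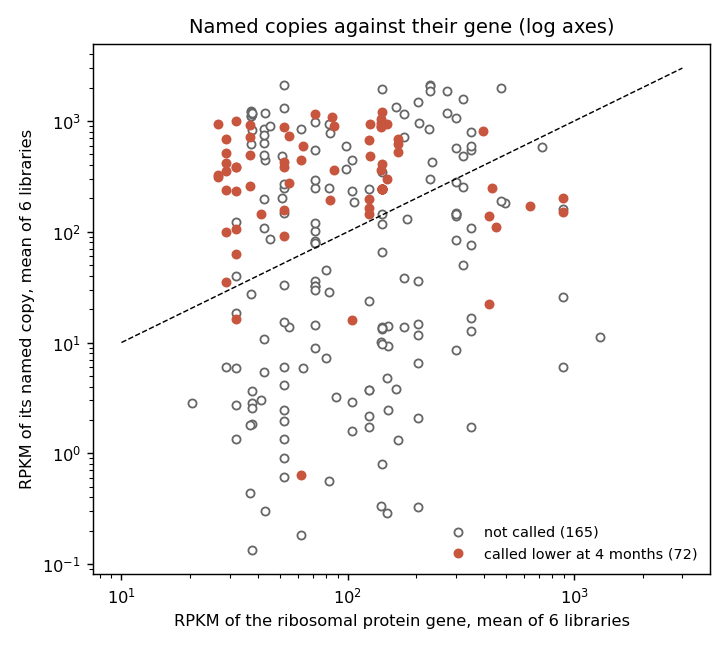
Mean RPKM of each tested named copy (vertical, log axis) against the mean RPKM of its ribosomal protein gene (horizontal, log axis), over the 6 libraries. Points above the dashed line of equality are copies listed higher than their gene, and filled points are the 72 of 237 copies called lower at 4 months.

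Among the 76 standard genes, mean levels over the 6 libraries ran from 20.5 to 1300 RPKM, with a median of 125 RPKM and at least 308 reads behind every value. Rplp1, a protein of the acidic stalk that recruits elongation factors, stood first, with 1260, 1410 and 1460 RPKM at PND2 and 1350, 938 and 1370 RPKM at 4 months. Rpl8, a large subunit protein near the catalytic centre, had 1150, 1210 and 1290 RPKM at PND2 and 1060, 824 and 978 RPKM at 4 months. The ages overlapped in Rplp1 and did not overlap in Rpl8, and neither was called (log2 fold change -0.19 ± 0.19 SE, adjusted p = 0.463, and -0.36 ± 0.14, adjusted p = 0.0921, limma with Benjamini-Hochberg adjustment).

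Rpl4, which lines the peptide exit tunnel, had 835, 798 and 888 RPKM at PND2 and 803, 650 and 695 RPKM at 4 months. Rps15, near the decoding site, had 704, 736 and 819 RPKM at PND2 and 789, 507 and 744 RPKM at 4 months. The ages overlapped in both of these genes, and neither was called (adjusted p = 0.196 and 0.516 with limma).

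At 4 months the ribosomal protein genes as a group were lower than at PND2, by a modest amount. Of the 79 members that passed the filter of 0.1 RPKM in 3 libraries, 73 had a negative log2 fold change, against 58.6% of the 25903 genes tested. At an adjusted p under 0.05, 28 members (35.4%) were called lower, where 21.1% of all genes and 28.4% of the 5052 tested protein-coding genes with a mean of at least 20 RPKM were called lower. The members' share was not far above the 28.4%. With all 6 libraries only Rpl3l was called higher, against 14.7% of all genes. The median log2 fold change (4 months minus PND2) was -0.34 for the members, -0.14 for all genes tested and -0.10 for protein-coding genes.

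The PND2 and 4 months libraries did not overlap in 42 members that were lower at 4 months, where 29.9% of all genes did so. None of the 76 standard genes reached a 2-fold change. In 73 of these 76 genes the lowest library was 4 months replicate 2, and in 55 the highest was PND2 replicate 3. Mitochondrial genes held 9.60% of the reads on genes in 4 months replicate 2 and 5.44 to 9.0% in the other libraries, and the part of this in the result was not tested. Without 4 months replicate 2 the count of members called lower went from 28 to 16 and the median from -0.34 to -0.24, and without PND2 replicate 3 they were 14 and -0.28. The count was 17 without PND2 replicate 2 and 18 without 4 months replicate 3. The median of all genes was -0.12 without 4 months replicate 2 and -0.1 without PND2 replicate 3. Shares of all genes called in these fits are not given here.

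The unequal-variance test of the study was run per gene on log2(RPKM + 0.1), without the study's replacement of low values. It called 6 members lower (7.59%) and 0 higher at an adjusted p under 0.05, where 7.5% of all genes were called lower, so that the members' share was near the background. An adjusted p under 0.1 is the threshold at which the paper counted genes for this test, and it was added here after seeing the data. At that threshold the test called 16 members lower (20.3%) and 1 higher, where 16.8% and 11.9% of all genes were called.

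How the libraries are scaled also moved the counts. Scaling each library by its median ratio took the median of all genes from -0.14 to -0.02 and that of the members to -0.22, with 70 of 79 negative and 18 called lower. Scaling to the summed RPKM of nuclear protein-coding genes gave a median of -0.39 and 44 members called lower, with the median of all genes at -0.18. The shares of all genes called under these scalings are not given here. Relative to the median of all genes, the members' median was -0.21 with the values as deposited and between -0.25 and -0.12 over all the settings run, with the value nearest 0 coming from the fit without 4 months replicate 2.

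**Figure D2:**
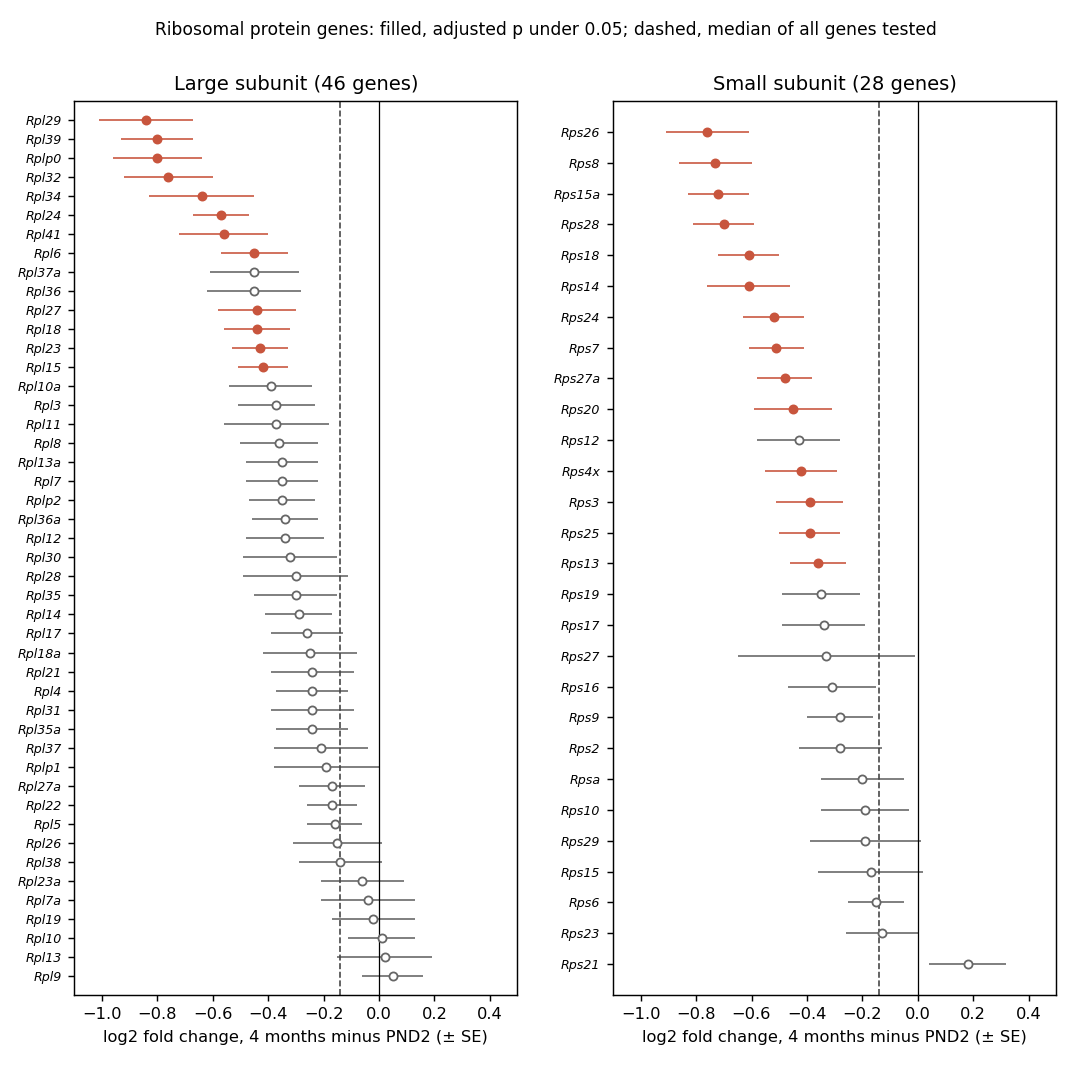
Log2 fold change (4 months minus PND2, with its SE) of 46 large subunit genes and 28 small subunit genes that are not paralogs, with 2 other small subunit genes not drawn. Filled points passed an adjusted p under 0.05 (12 and 14 genes), and all of them lie left of the dashed line at the median of all genes tested, -0.14.

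The summed RPKM of the 80 genes gave a single value for each library. Named copies annotated as protein-coding, such as Rpl10-ps3 (mean 2050 RPKM) and Rps12-ps3 (mean 1950 RPKM), counted only among the nuclear protein-coding genes. The same holds for Rps27rt and Rps3a1. The shares below are therefore those of the 80 genes and not of all ribosomal protein mRNA. As a share of the RPKM of nuclear protein-coding genes it was 3.52%, 3.32% and 3.62% at PND2 and 2.83%, 2.33% and 2.70% at 4 months. All 3 libraries at 4 months were below all 3 at PND2, with means of 3.49% ± 0.155 (SD, n = 3) and 2.62% ± 0.255, a ratio of 0.752. A 2-sided exact permutation test of the difference gave p = 0.1, which is the smallest value that 3 against 3 libraries allow. Counted as recovered reads the share was lower, since the genes are short, with 1.42%, 1.28% and 1.45% at PND2 and 1.18%, 0.959% and 1.13% at 4 months, a ratio of 0.785 with the same p of 0.1 in the exact permutation test. In bulk tissue, fewer cells of a type that makes more of these mRNAs and less of these mRNAs per cell cannot be told apart.

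**Figure D3:**
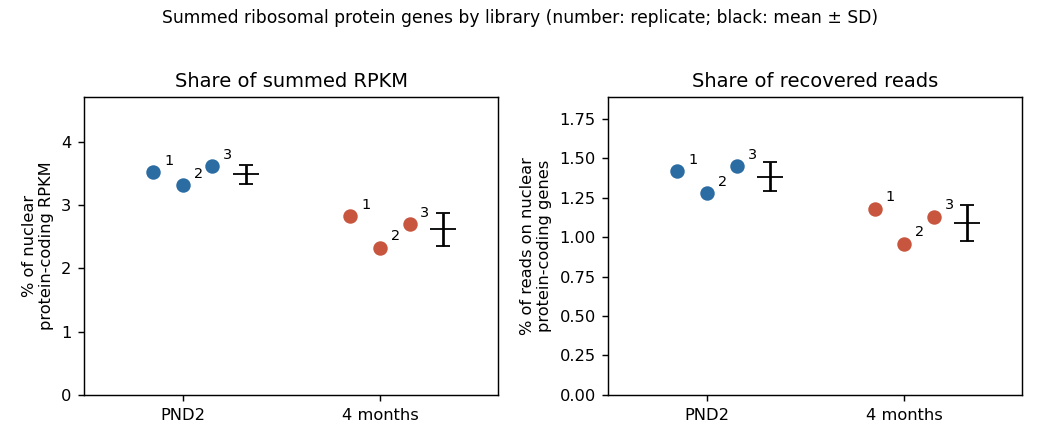
Summed ribosomal protein genes in each library as a percentage of nuclear protein-coding genes, by RPKM (left) and by recovered reads (right), with replicate numbers beside the points and the mean ± SD in black. The 3 libraries at 4 months lie between 2.33% and 2.83% of RPKM and the PND2 libraries between 3.32% and 3.62%.

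Markers of several cell types differed between the ages in the same libraries. The 6 mitosis markers, among them Mki67 and Top2a, all fell, and their summed level went from between 35.7 and 68.8 RPKM to between 4.42 and 4.80 RPKM. The 8 endothelial markers all fell, from sums of 459 to 620 RPKM to 274 to 280 RPKM. Of the 15 cardiomyocyte markers 8 fell and none rose, with sums of 20900 to 24100 RPKM at PND2 and 8160 to 13200 RPKM at 4 months. In contrast 5 of 6 smooth muscle markers, 6 of 7 tested adipocyte markers and 6 of 9 macrophage markers rose, while 1 macrophage marker fell. The part of these cell types in the level of ribosomal protein genes was not tested.

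The largest falls were in members of both subunits. Rpl29, a surface protein of the large subunit (ENSMUSG00000048758, chr9:106429454-106431568), had 488, 555 and 563 RPKM at PND2 and 360, 232 and 318 RPKM at 4 months. Rplp0, the base of the acidic stalk and a widely used reference gene for PCR (ENSMUSG00000067274, chr5:115559467-115563727), had 677, 819 and 923 RPKM at PND2 and 490, 400 and 495 RPKM at 4 months. In both genes every PND2 library was above every library at 4 months, and they fell by 0.84 (SE 0.17, adjusted p = 0.00901) and by 0.80 (SE 0.16, adjusted p = 0.00721) on the log2 scale in limma.

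Rpl39, a small protein at the exit tunnel (ENSMUSG00000079641, chrX:37082520-37085402), had 129, 93.9 and 102 RPKM at PND2 and 61.9, 59.7 and 63.7 RPKM at 4 months. Its ages were well apart, and it fell by 0.80 (SE 0.13, adjusted p = 0.00328 with limma). In its lead transcript 17.1% of the windows were found in another gene. Its named copy Rpl39-ps still had a mean of 1080 RPKM against 85.1 RPKM for Rpl39, a ratio of 12.7. Rpl39-ps was also called lower (log2 fold change -0.72, adjusted p = 0.0084 with limma).

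Rpl32 (ENSMUSG00000057841, chr6:115805505-115808747), also of the large subunit, had 643, 504 and 554 RPKM at PND2 and 385, 279 and 346 RPKM at 4 months. Rps26, which sits where the mRNA leaves the small subunit (ENSMUSG00000025362, chr10:128624530-128626506), had 460, 477 and 546 RPKM at PND2 and 332, 240 and 312 RPKM at 4 months. Neither gene overlapped between the ages, and both fell by 0.76 (SE 0.16 and 0.15, adjusted p = 0.00885 and 0.0074 with limma). Rpl32 overlaps Cand2 on the opposite strand, as 17 members do with some gene, and whether the counting used strand is not given in the sources used here. In the study's unequal-variance test these 5 genes had adjusted p from 0.059 to 0.113, above the 0.05 used here, and 4 of them were under 0.1.

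At the other end, a few members had fold changes near 0 or above it. Rps21, of the small subunit (ENSMUSG00000039001, chr2:180257377-180258445), had 144, 134 and 147 RPKM at PND2 and 173, 129 and 184 RPKM at 4 months, with a log2 fold change of 0.18 ± 0.14 SE (adjusted p = 0.382 with limma). Its ages overlapped because 4 months replicate 2 was the lowest library of all. Without that library the log2 fold change was 0.33 ± 0.10 SE and Rps21 was called higher (adjusted p = 0.0477 with limma).

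Rpl9 had 33.9, 38.1 and 39.0 RPKM at PND2 and 41.5, 34.0 and 39.5 RPKM at 4 months, and Rpl13 had 63.9, 83.9 and 98.7 RPKM at PND2 and 84.6, 71.9 and 90.3 RPKM at 4 months. The ages overlapped in both, with log2 fold changes of 0.05 ± 0.11 SE and 0.02 ± 0.17 SE whose sign turned under other scalings or without single libraries. These 2 genes share 93.4% and 80.4% of their windows with other genes.

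The fold changes were also split by how much of a gene is found elsewhere, an alternative chosen after seeing the data. Of the 6 standard genes with under 25% of their windows in another gene, 3 were called lower, with a median log2 fold change of -0.38. Among 51 genes with 25 to 75% shared, 21 were called lower (median -0.35), and among 19 with at least 75% shared, 3 were (median -0.33). Of the 237 named copies tested, 72 were called lower and 0 higher in limma, with a median of -0.36 and 109 at an unadjusted p under 0.05. Of all genes 21.1% were called lower, and of protein-coding genes of at least 20 RPKM 28.4% were. The share was 41.2% in the genes with 25 to 75% shared, above both. It was 15.8% in those with at least 75% shared, below both, and 30.4% in the copies, near the 28.4%. The group with under 25% shared holds only 6 genes. Differences between these groups, and from the background, were not tested.

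Grouped by position in the ribosome, the small subunit genes were called lower in 15 of 30 cases (median -0.38) and the large subunit genes in 12 of 46 (median -0.33), a difference that was not tested. At the mRNA exit channel, Rps14, Rps26 and Rps28 fell and Rpsa (log2 fold change -0.20) did not pass the test, a median of -0.65 over the 4 genes. At the mRNA entry channel 1 of 3 genes, Rps3, fell, and the median was -0.28. Around the peptide exit tunnel 1 of 8 genes, Rpl39, fell, with a median of -0.24, and Rpl19 at the same site had a log2 fold change of -0.02. In the stalk Rplp0 fell, while Rplp1, Rplp2 and Rpl12 did not pass the test. Rpl5 and Rpl11, which bind the 5S ribosomal RNA and can restrain the p53 inhibitor Mdm2, had log2 fold changes of -0.16 and -0.37 and were not called (adjusted p = 0.247 and 0.164 with limma).

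Mutations in some of these genes cause Diamond-Blackfan anemia in people, a failure of red cell production. Of 11 such genes 4 (36.4%) were called lower (Rps7, Rps24, Rps26 and Rpl15), near the 35.4% of all members. Of protein-coding genes of at least 20 RPKM 28.4% were called lower. The median log2 fold change of these 11 genes was -0.35, which is also close to that of all members. Rps19, the most often mutated one, had 31.7, 34.2 and 42.4 RPKM at PND2 and 29.5, 24.3 and 30.6 RPKM at 4 months (log2 fold change -0.35 ± 0.14 SE, adjusted p = 0.0955 with limma).

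Rpl3l, the striated muscle paralog of Rpl3 (ENSMUSG00000002500, chr17:24727820-24736143), was the exception among the members. It had 0.375, 0.578 and 0.374 RPKM at PND2, from 24, 29 and 18 reads, and 5.12, 26.0 and 27.2 RPKM at 4 months, from 314, 1016 and 1293 reads. All libraries at 4 months were far above PND2, and 4 months replicate 1 was well below the other two. The log2 fold change was 4.86 ± 0.62 SE (adjusted p = 0.00129 with limma), the only change past 2-fold among the members tested, where 8.72% of all genes were called higher past that fold. None of its windows were found in another gene. In the study's unequal-variance test its adjusted p was 0.0856, between the thresholds of 0.05 and 0.1.

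Rpl3 itself had 116, 154 and 155 RPKM at PND2 and 120, 99.1 and 108 RPKM at 4 months, with ages that overlapped (log2 fold change -0.37 ± 0.14 SE, adjusted p = 0.0772 with limma). Rpl3l made up 0.321%, 0.375% and 0.241% of the summed RPKM of Rpl3 and Rpl3l at PND2 and 4.10%, 20.8% and 20.1% at 4 months. The means were 0.312% ± 0.067 (SD, n = 3) and 15% ± 9.43, and the exact permutation test again gave its smallest value, p = 0.1. Counted as recovered reads the share was smaller, with 0.169%, 0.198% and 0.127% at PND2 and 2.2%, 12.1% and 11.7% at 4 months. Rpl3 shares 85.8% of its windows with other genes. Its copies Rpl3-ps1 and Rpl3-ps2 had means of 946 and 484 RPKM against 125 RPKM for Rpl3. The level of Rpl3, and with it the share, is less certain than the level of Rpl3l.

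Cardiomyocyte genes in the same libraries were lower at 4 months. Myh6, the main adult myosin heavy chain of the mouse heart, had 3270, 3070 and 3670 RPKM at PND2 and 1790, 2730 and 1970 RPKM at 4 months, and Actc1, cardiac actin, had 5600, 6320 and 6940 RPKM and then 1180, 2530 and 1670 RPKM. The ages did not overlap in either gene, Actc1 fell (adjusted p = 0.00307 with limma), and Myh6 missed the threshold (adjusted p = 0.051). Per 1000 RPKM of Myh6, Rpl3l went from 0.115, 0.189 and 0.102 RPKM at PND2 to 2.85, 9.51 and 13.8 RPKM at 4 months. Relative to Tnnt2, 4 months replicate 1 was again the lowest at that age (10.9 against 38.2 and 54.9). Relative to Myl2 it was not, with 18.4, 13.8 and 22.6 at 4 months and 0.11, 0.166 and 0.0981 at PND2. The 10 skeletal muscle markers had summed levels of 939 to 1400 RPKM at PND2 and 266 to 591 RPKM at 4 months, with 5 called lower and 0 higher (8 at an unadjusted p under 0.05). Most of this sum was Ckm (626, 633 and 886 RPKM at PND2) and Acta1 (333, 288 and 495 RPKM). Ckm is also in the cardiomyocyte list, so the sum is not separate from heart muscle. The skeletal myosin genes Myh1, Myh2 and Myh4 were at most 2.75 RPKM in any library. Rpl3l was thus higher at 4 months both in total and relative to heart muscle genes, and the part of muscle cells in its level was not tested.

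**Figure D4:**
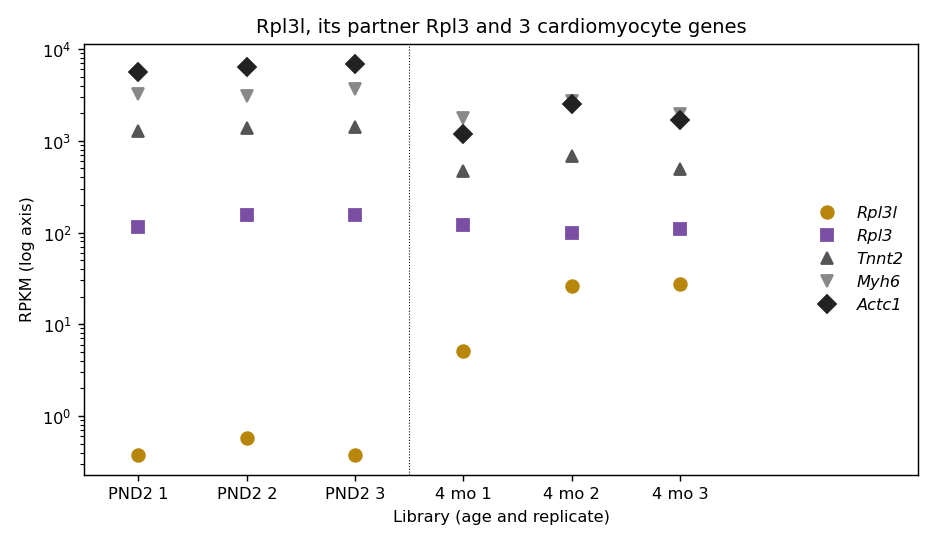
RPKM on a log axis of Rpl3l, its partner Rpl3 and the cardiomyocyte genes Tnnt2, Myh6 and Actc1 in each library. Rpl3l lies under 1 RPKM in the 3 PND2 libraries and at 5.12 to 27.2 RPKM at 4 months, while the 3 cardiomyocyte genes lie lower in every library at 4 months than at PND2.

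The other paralogs gave no common picture. Rpl39l, a testis-enriched paralog of Rpl39, had 0.309, 0.315 and 0.658 RPKM at PND2 and 0.515, 0.758 and 1.25 RPKM at 4 months, from 8 to 30 reads. Its ages overlapped, and its log2 fold change of 0.82 ± 0.42 SE was not called (adjusted p = 0.169 with limma). Rpl10l, a testis paralog of Rpl10, was listed at 0.0501 RPKM (2 reads) in PND2 replicate 1, at 0.0523 RPKM (2 reads) in 4 months replicate 1 and at 0 in the other 4 libraries, and it was the member that did not pass the filter. Its partner Rpl10 had 219, 227 and 238 RPKM at PND2 and 255, 199 and 241 RPKM at 4 months, with overlapping ages (log2 fold change 0.01 ± 0.12 SE). Rpl10 shares 92.2% of its windows with other genes.

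Rps27l, a p53 target, had 121, 95.5 and 103 RPKM at PND2 and 87.9, 75.3 and 84.2 RPKM at 4 months. The ages did not overlap, and it was called lower with an adjusted p of 0.0468 (log2 fold change -0.36 ± 0.12 SE, limma), a call that was lost in 10 of the 18 alternative settings. Rps27 had only 17.7, 20.4 and 29.1 RPKM at PND2 and 14.6, 12.8 and 28.3 RPKM at 4 months (log2 fold change -0.33 ± 0.32 SE, adjusted p = 0.462). It shares 98.7% of its windows with other genes, and Rps27rt, its retrogene, was listed at 1720, 1440 and 1800 RPKM and then 1310, 1030 and 1270 RPKM.

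Rps4l, a copy of Rps4x that the rule leaves out because it is annotated as a transcribed processed pseudogene, had 52.4, 68.7 and 60.1 RPKM at PND2 and 19.9, 16.3 and 19.3 RPKM at 4 months. The ages were far apart, and it fell by 1.70 (SE 0.13, adjusted p = 1.9e-04 with limma). Rps4x had 528, 458 and 498 RPKM at PND2 and 419, 323 and 369 RPKM at 4 months and fell by 0.42 (SE 0.13, adjusted p = 0.0383).

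A list of 6 ribosomal protein genes and near relatives whose symbols the rule does not catch had negative fold changes throughout. Of these, 4 (66.7%) were called lower, with a median log2 fold change of -0.43. Of all genes 21.1% were called lower, and of protein-coding genes of at least 20 RPKM 28.4% were. The protein-coding genes Rps3a1 (632, 536 and 603 RPKM at PND2, 578, 469 and 510 RPKM at 4 months) and Rps27rt are also outside the rule and were not in this list, and neither was called (adjusted p = 0.291 and 0.0674 with limma). Gnb2l1, which encodes the small subunit scaffold RACK1, had 280, 283 and 302 RPKM at PND2 and 217, 167 and 197 RPKM at 4 months and fell by 0.58 (SE 0.12, adjusted p = 0.00831 with limma). Fau, a fusion of a ubiquitin-like protein with a small subunit protein, had a log2 fold change of -0.17 ± 0.18 SE. The ribosomal proteins of mitochondria, which are encoded in the nucleus but build a separate ribosome, were called lower in 31 of 77 cases (40.3%) and higher in 0 (40 at an unadjusted p under 0.05, limma), with a median of -0.31. Among them Mrpl41 went from 50.5 ± 2.25 RPKM (SD, n = 3) to 33.2 ± 1.12 RPKM, and Mrps6, not called, had a log2 fold change of 0.19.

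Genes that make and assemble ribosomes were also examined. The counts that follow stand beside 21.1% of all genes and 28.4% of protein-coding genes of at least 20 RPKM called lower, and 14.7% of all genes called higher. Of 64 ribosome biogenesis genes 27 fell (42.2%) and 1 rose, with a median of -0.39. Npm1, a nucleolar chaperone, had 140, 109 and 111 RPKM at PND2 and 76.3, 66.3 and 64.9 RPKM at 4 months and fell by 0.79 (SE 0.13, adjusted p = 0.00331 with limma), and Nop58, a core protein of the snoRNA particles, fell by 0.83 (SE 0.12, adjusted p = 0.00185). Sbds, which helps to release a joining-blocking factor from the large subunit, went against the list and rose by 0.52 (SE 0.10, adjusted p = 0.00745).

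For RNA polymerase I, which transcribes ribosomal RNA, 6 of 15 genes fell (40.0%) and 1 rose, with a median of -0.28. Polr1e, a subunit, fell by 1.26 (SE 0.15, adjusted p = 0.00089 with limma), and Taf1d, of the promoter selectivity factor, fell by 1.04 (SE 0.15, adjusted p = 0.00204). Taf1a of the same factor rose by 0.89 (SE 0.13, adjusted p = 0.00211).

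Translation factors were called lower at shares near the background of 28.4% of protein-coding genes of at least 20 RPKM. The members' own share of 35.4% was close to that of the initiation factors. Of 30 initiation factors 10 fell (33.3%), among them Pabpc1, Eif2s1 and Eif4a1, and 1 rose, Eif1, from 172, 163 and 168 RPKM to 213, 222 and 227 RPKM (adjusted p = 0.00954 with limma). Of 8 elongation factor genes 2 fell, Eif5a2 and Eef1b2. Eef1a1, the main carrier of aminoacyl-tRNA, had 3480, 3440 and 3680 RPKM at PND2 and 3150, 2340 and 2640 RPKM at 4 months and did not pass the test (adjusted p = 0.15), and its muscle and neuron paralog Eef1a2 had 82.7, 107 and 94.2 RPKM and then 96.4, 205 and 149 RPKM (adjusted p = 0.111). Of 16 further genes whose mRNAs belong to the TOP class, a list that also holds Gnb2l1, 7 fell (43.8%), led by Naca (adjusted p = 0.00048) and Hnrnpa1 (adjusted p = 0.00108), and the median was -0.39.

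Of 16 regulators of growth 5 fell (31.2%) and 1 rose, which is also near the background. Myc, a transcription factor that drives ribosome production, had 9.91, 14.2 and 11.3 RPKM at PND2 and 5.81, 3.92 and 5.89 RPKM at 4 months and fell by 1.17 (SE 0.21, adjusted p = 0.00529 with limma). Mycn fell by 2.00 (SE 0.23, adjusted p = 0.00089), and Eif4ebp1, a target of mTOR that blocks initiation, fell by 1.10 (SE 0.09, adjusted p = 0.00027). Deptor, an inhibitor of mTOR, rose by 1.12 (SE 0.23, adjusted p = 0.00954). The kinase gene Mtor had a log2 fold change of -0.29 and was not called (adjusted p = 0.0832).

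Exon use within the members was compared through the ratio of exon RPKM to gene RPKM. Of 957 exons tested in 78 members, limma called 0 at an adjusted p under 0.05, where 0.0171% of all 245168 exons were called, and 89 had an unadjusted p under 0.05, where the share of all exons was 11.9%. With a pseudocount of 0.1 RPKM 1 exon was called, and diffSplice called 19 without and 5 with voom weights, where 1.33% and 0.576% of all exons were called.

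Rps24, known for alternative 3′ exons, was described first. Its 78-base first exon (chr14:24490681-24490758, plus strand, mm10) had 59.2, 57.1 and 58.7 RPKM at PND2 and 22.3, 21.5 and 15.1 RPKM at 4 months. As a share of the gene's RPKM it went from 9.93%, 10.5% and 10.9% to 5.22%, 5.91% and 3.98%, without overlap, and the log2 ratio changed by -1.02 ± 0.19 SE. This did not pass the main test (adjusted p = 0.178 with limma) and passed diffSplice without (adjusted p = 5.6e-04) and with voom weights (adjusted p = 0.0237). The 3-base alternative exon stood at 4.30%, 6.02% and 6.33% of the gene at PND2 and 4.18%, 7.68% and 6.09% at 4 months, with overlapping ages, and the 372-base last exon at 15.8%, 14.9% and 15.8% and then 15.3%, 19.6% and 16.2%. Rps24 shares 70.4% of its windows with other genes, and its copy Rps24-ps3 had a mean of 2000 RPKM against 475 RPKM for Rps24. The part of the copies in these exon ratios was not tested.

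In Rpl10, chosen after its values were seen, the 165-base first exon (chrX:74270860-74271024, plus strand, mm10) had 429, 356 and 302 RPKM at PND2 and 187, 133 and 117 RPKM at 4 months, while the gene as a whole had a log2 fold change of 0.01. The ages did not overlap, and the log2 ratio changed by -1.34 ± 0.23 SE, which was not called in the main test (adjusted p = 0.164 with limma) or by diffSplice without weights (adjusted p = 0.91) and was called by diffSplice with voom weights (adjusted p = 6.5e-09). Rpl10 shares 92.2% of its windows with other genes. Its copies Rpl10-ps1, Rpl10-ps3 and Rpl10-ps6 had means of 2120, 2050 and 1860 RPKM against 230 RPKM for Rpl10. Each of these copies had a log2 fold change of 0.07. The part of the copies in the gene value and in the exon ratio was not tested.

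**Figure D5:**
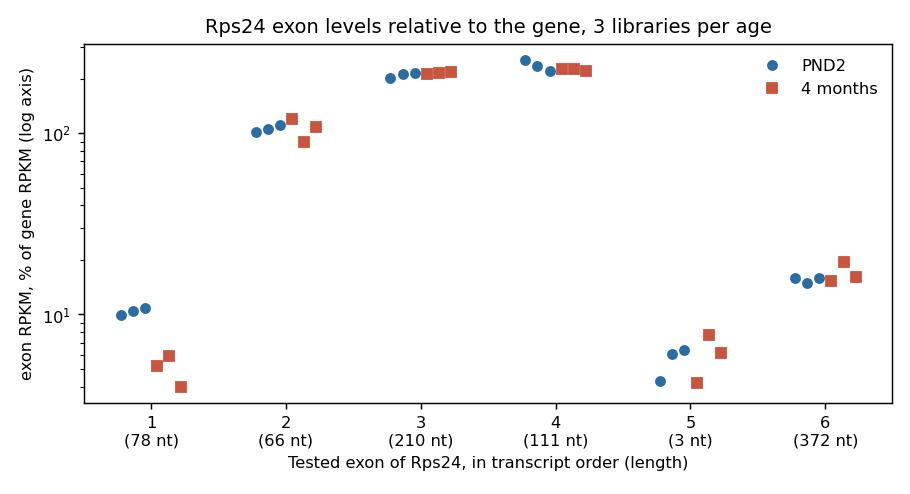
RPKM of each tested Rps24 exon as a percentage of the gene's RPKM (log axis), with exons in transcript order and 3 libraries per age. The first exon is at 9.93 to 10.9% at PND2 and 3.98 to 5.91% at 4 months, and the other exons overlap between the ages.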

How the data were processed

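RPKM values per gene and per exon were used as deposited. Per the labels and the study's methods, the authors pooled aortic valves, prepared stranded libraries, aligned trimmed reads to mm10 with TopHat2 2.1.0, and counted them on Ensembl genes with easyRNASeq, from which the deposited RPKM values were made with R 3.2.2. Strand use in the counting is not given in the sources used here. The total of each library was inferred by taking its smallest product of exon RPKM and exon length above 0 as a single read. RPKM times exonic length and this inferred total gave whole reads for 100% of values above 0 (tolerance 0.01 reads), which serve for read numbers. A single read on 1 kb was worth 0.0256 to 0.0420 RPKM.

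Ages were compared by limma (version 3.58.1, run in R 4.3.3), fitted to log2(RPKM + 0.1) and moderated by eBayes with a trend, 2-sided, for genes with at least 0.1 RPKM in 3 libraries, and Benjamini-Hochberg adjustment over all 25903 genes, called at 0.05. For genes of low RPKM such a fold change is smaller than the true one. The p-values measure the spread between pooled libraries. Exons were tested on log2((exon RPKM + 1)/(gene RPKM + 1)) with at least 1 RPKM in 3 libraries. Single values per library were compared by exact permutation tests. Windows of 47 bases came from GENCODE M21 transcripts and start windows from RefSeq (GRCm38.p6). Figures were drawn with matplotlib 3.10.9 and permutation tests run with scipy 1.17.1 (Python 3.11.15, pandas 2.3.3, numpy 2.4.6).

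The members and lists were chosen with earlier results of these data known. Values in every library are given for the 5 lowest and 5 highest fold changes, the 5 highest levels, and paralogs with their partners, except that some genes are not reported here. From other lists up to 4 genes with the smallest adjusted p, and genes against the list's direction, are named. On simulated data for the comparison of 25903 genes, limma found 57% of planted changes of 1 and 96% of changes of 2 on the log2 scale, with 8 false calls, and the study's unequal-variance test found 0% and 2%. Only 200 genes were changed there, far fewer than were called in the data, and the shares found depend on that number. In the data the study's test called 7.5% of all genes lower and 5.66% higher. The lowest log2 fold change of a standard gene was -0.84, so the simulation does not give the power for the members. Alternatives covered pseudocounts, filters, trend, scalings, the study's test, voom, a replicate block and each library left out.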

Additional observations from a re-analysis of the deposited data

How the results depend on the processing

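The median log2 fold change of the ribosomal protein genes stayed negative under every setting run, from -0.41 to -0.22. The count of 28 called lower became 16 without the trend, 18 with median scaling, 44 when libraries were scaled to nuclear protein-coding RPKM with or without the ribosomal protein genes, and 6 with the study's unequal-variance test, which called 0 higher at the same threshold of 0.05 (16 lower and 1 higher at 0.1). Leaving out 1 library gave 14 to 29 lower and 1 to 2 higher. Apart from the study's test, the shares of all genes called under these fits are not given here. The median of all genes also moved, to -0.02 with median scaling. It was -0.18 and -0.19 when libraries were scaled to nuclear protein-coding RPKM with and without the ribosomal protein genes. The 89 calls in the pathway lists became 58 with median scaling and 32 with the study's test, and 45 to 106 without 1 library. The difference in the summed share was -0.865 percentage points by RPKM (-0.968 to -0.722 without 1 library) and -0.297 by reads, whose shares are smaller in both ages. The Rpl3l share differed by 14.7 points by RPKM (11.8 to 20.1 without 1 library) and by 8.5 points by reads. The 0 exons called became 1 with a pseudocount of 0.1 RPKM, 19 with diffSplice and 5 with voom weights. The causes were not tested.

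Members near 0 turned sign: Rpl13 (-0.03 and -0.04 scaled to protein-coding RPKM with and without the ribosomal protein genes), Rpl10 (-0.03 and -0.05) and Rpl9 (-0.01 without these genes), and with quantile normalization Rplp1 (0.03), Rpl4 (0.01) and Rps15 (0.03). Without 1 library Rpl13 ranged from -0.15 to 0.16, Rpl10 from -0.06 to 0.12, Rpl9 from -0.01 to 0.13 and Rps15 from -0.29 to 0.03. Of the single-gene values of named members, 17 turned sign, 26 lost and 7 gained a call, and 291 did neither.

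Replicate numbers are shared between the ages, but same-numbered libraries did not deviate together (r = 0.044, -0.061 and -0.16). A replicate block gave 26 members lower, 1 higher, a median of -0.34, 64 calls in the pathway lists and 0 exons. Depth limits Rpl39l and Rpl10l, with at most 30 and 2 reads.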
